A study of Homo sapiens with 6 samples.

Results

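The genes described here encode the proteins of epithelial cell junctions: cadherins, claudins, occludin, junctional adhesion molecules, their cytoplasmic scaffolds, desmosomal proteins and the polarity proteins that sit beside them. They were chosen by symbol, from the pattern of each family's gene names, with earlier results of these data known. No measured value entered the pattern. Of 14884 genes with a named probe, 50 matched, each through 1 probe. They are 24 claudins, 8 desmosomal genes, 2 cadherins (CDH23 and CDH26), 2 junctional adhesion molecules (JAM2 and JAM3), occludin (OCLN), TJP1 and TJP3, cingulin (CGN) and paracingulin (CGNL1), 8 coding genes of the PARD and Crumbs polarity families, and PARD6G-AS1, a long RNA antisense to PARD6G that shares the start of its name. The same name patterns match 95 protein-coding genes of RefSeq, and the other 46 have no named probe and were not analysed here. These include CDH1, CDH2 and CDH3, all 6 catenin genes, all 17 connexin genes of the GJA, GJB and GJC families, and F11R. The numbered cadherins are thus represented by 2 of 23 genes, and the classical cadherins, the catenins that bind them and the connexins are not covered.

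The cells were ARPE-19, an established line from human retinal pigment epithelium, the pigmented layer behind the photoreceptors. They had been grown to confluence, held for 4 weeks in 1% serum to differentiate, and then placed in medium without serum. Of 6 cultures, 3 received vehicle (called untreated) and 3 received 250 µM FAC, the usual short name of ferric ammonium citrate, a soluble iron salt, and RNA was taken after 2 days. Each culture was hybridised to its own array, so n = 3 per group throughout, and all cultures are of 1 cell line. Levels are log2 intensities, on which an array's value for a gene can be compared between arrays but not with the value of another gene. A change is the mean of the FAC arrays minus that of the untreated arrays on this log2 scale, ± SE from limma, with the Benjamini-Hochberg adjusted p over all 14884 genes.

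In the retinal pigment epithelium, tight junctions seal the space between neighbouring cells and so form the outer blood-retinal barrier. Claudins and occludin span the membrane there, and ZO proteins (the TJP genes) and cingulins tie them to actin. The Crumbs and PAR complexes mark the apical side and set where the junction forms, while desmosomes join cells through desmosomal cadherins, desmocollins and desmogleins, that desmoplakin links to keratin filaments.

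With FAC, 3 of the 50 junction genes rose and 1 fell. CRB2, a Crumbs protein of the apical membrane, rose 1.42-fold. PARD3B, a relative of the PAR3 scaffold, rose 1.35-fold. CLDN1, a barrier-forming claudin, rose 1.26-fold. DSC1, a desmocollin, fell, and was 1.35-fold lower with FAC. The other 46 did not pass the test, among them TJP1, OCLN, DSP and CLDN19, and their changes lay between -0.22 and 0.21. The share of members called was 8%, against 3.73% of all genes tested (1.88% higher and 1.85% lower). The 3 FAC arrays lay wholly above or wholly below the 3 untreated arrays in 12 members, or 24%, against 23.4% of all genes. Of the 50 members, 8 had FAC above, a larger share than the 10.4% of all genes. FAC was below in 4 of the 50, a smaller share than the 13.0% of all genes. The median change was 0.0054 over the members and -0.0041 over all genes.

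**Figure D1:**
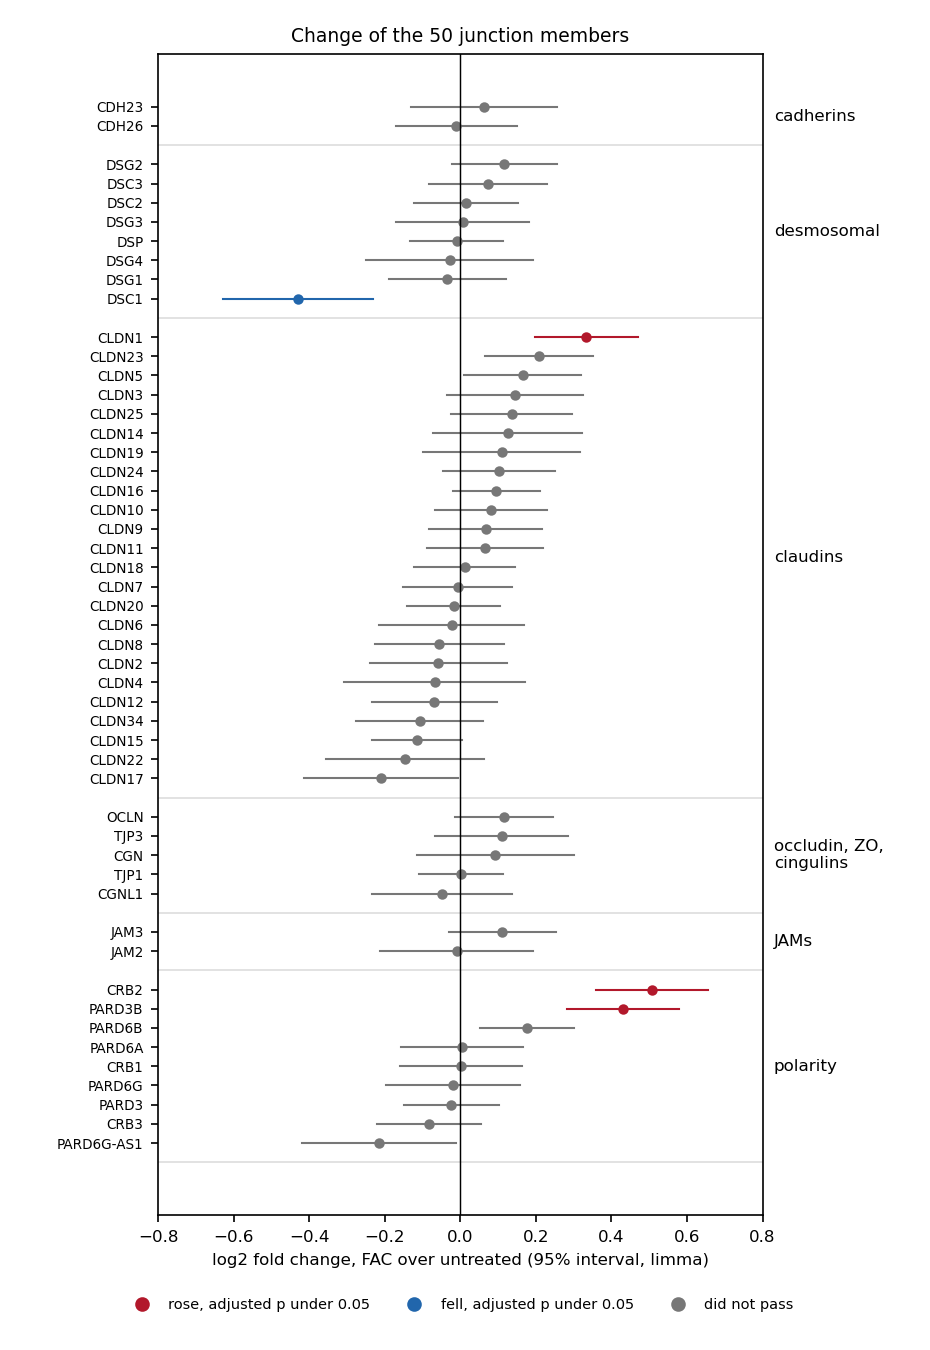
Log2 fold change of FAC over untreated for each of the 50 members (horizontal axis; points with 95% intervals from limma, n = 3 per group), grouped by family, with genes that rose in red, genes that fell in blue and genes that did not pass the test in grey. CRB2 (0.51), PARD3B (0.43) and CLDN1 (0.33) stand to the right and DSC1 (-0.43) to the left of the other members.

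The promoters of these 4 genes are shown because they are the members that passed the test. Each is the 250 bases before a RefSeq transcription start in GRCh38.p14, 5′ to 3′ on the gene's strand. Capitals mark every match, on either strand, to 4 motifs: CAGGTG, an E-box form bound by Snail and ZEB repressors; ACGTG, the core of hypoxia response elements; GGGCGG, the GC box; and TATAAA.
CRB2, chr9:123355947-123356196, plus strand: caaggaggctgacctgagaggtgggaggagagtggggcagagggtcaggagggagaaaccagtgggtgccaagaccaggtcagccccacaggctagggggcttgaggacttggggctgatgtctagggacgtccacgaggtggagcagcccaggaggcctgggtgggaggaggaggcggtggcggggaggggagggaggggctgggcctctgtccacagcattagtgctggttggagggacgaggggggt
PARD3B, chr2:204545225-204545474, plus strand: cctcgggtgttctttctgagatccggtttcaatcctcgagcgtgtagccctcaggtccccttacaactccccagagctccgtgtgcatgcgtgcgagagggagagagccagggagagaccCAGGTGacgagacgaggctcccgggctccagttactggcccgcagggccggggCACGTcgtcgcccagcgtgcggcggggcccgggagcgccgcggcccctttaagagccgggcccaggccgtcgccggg
CLDN1, chr3:190322447-190322696, minus strand: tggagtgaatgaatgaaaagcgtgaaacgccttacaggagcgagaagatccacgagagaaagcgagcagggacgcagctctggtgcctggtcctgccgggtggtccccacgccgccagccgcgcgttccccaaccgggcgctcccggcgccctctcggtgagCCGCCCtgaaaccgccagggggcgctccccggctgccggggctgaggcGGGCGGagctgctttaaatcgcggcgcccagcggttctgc
DSC1, chr18:31162857-31163106, minus strand: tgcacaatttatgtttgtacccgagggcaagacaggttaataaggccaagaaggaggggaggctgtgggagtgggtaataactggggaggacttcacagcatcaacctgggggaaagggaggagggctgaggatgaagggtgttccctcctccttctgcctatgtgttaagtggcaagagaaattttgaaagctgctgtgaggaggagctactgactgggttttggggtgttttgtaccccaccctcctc
The PARD3B window held 1 E-box match and 1 match to the hypoxia core, and the CLDN1 window held 2 GC boxes. The CRB2 and DSC1 windows held none of the 4 motifs, and neither did the window at a second RefSeq start of CRB2. The windows differed in composition, with 28 CpG dinucleotides for CLDN1 and 26 for PARD3B against 5 for CRB2 and 1 for DSC1, where the median over 35116 promoters of this length was 11. Over those promoters, 17.5% held the E-box form, 18.5% the hypoxia core, 42.6% the GC box and 10.7% TATAAA. The 57 windows found for 39 of the members held them in 26.3%, 21.1%, 45.6% and 1.75% of cases, in the same order. These are matches of letters and not known binding sites.

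Polarity proteins held the members with the largest rises. CRB2 measured 7.76, 7.73 and 7.76 on untreated replicates 1, 2 and 3, and 8.28, 8.15 and 8.35 on the FAC replicates. The untreated cultures spanned 0.04 and every FAC culture lay above them. The mean rose from 7.75 ± 0.02 to 8.26 ± 0.10 (SD), a change of 0.51 ± 0.06 (limma adjusted p = 0.00803, 95% interval 0.36 to 0.66). Of the other Crumbs genes, CRB1, which in the retina is known from photoreceptors and Müller glia, measured 5.79 ± 0.09 and 5.80 ± 0.08 (0.0023 ± 0.07, adjusted p = 0.989). CRB3, the form found widely in epithelia, measured 7.01 ± 0.05 and 6.93 ± 0.07 (-0.08 ± 0.06, adjusted p = 0.549). Within each array, CRB2 minus CRB3 lay between 0.69 and 0.76 in untreated and between 1.13 and 1.45 in FAC-treated cells, so CRB2 moved up relative to CRB3 on all 3 FAC arrays. CRB2 passed in each of the 14 alternative analyses, with its change between 0.46 and 0.56 and its adjusted p between 0.000715 and 0.046. It overlaps DENND1A in RefSeq, and that gene measured -0.08 ± 0.06 (adjusted p = 0.593).

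PARD3B measured 8.88, 8.74 and 8.76 on the untreated arrays and 9.19, 9.31 and 9.19 on the FAC arrays. All FAC values lay above the highest untreated value, that of replicate 1. The change was 0.43 ± 0.06 (adjusted p = 0.0141, 95% interval 0.28 to 0.58). PARD3 itself, the scaffold that recruits the PAR complex to the forming junction, measured 9.46 ± 0.04 and 9.43 ± 0.05 (-0.02 ± 0.05, adjusted p = 0.868). PARD3B minus PARD3 was between -0.73 and -0.60 on the untreated arrays and between -0.30 and -0.08 on the FAC arrays. PARD3B no longer passed without untreated replicate 3 (adjusted p = 0.0644), FAC replicate 1 (0.0559) or FAC replicate 2 (0.0517). Nor did it pass when all 53617 probes were tested together (adjusted p = 0.0665).

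PARD6 proteins are adaptors that join PAR3 to atypical protein kinase C and CDC42. PARD6B measured 8.75, 8.79 and 8.70 untreated and 8.93, 8.95 and 8.88 with FAC. Its groups did not overlap, but the difference of 0.18 ± 0.05 did not pass (adjusted p = 0.139, 95% interval 0.05 to 0.30). PARD6A (0.0042 ± 0.07, adjusted p = 0.982) and PARD6G (-0.02 ± 0.08, adjusted p = 0.925) had values that overlapped between groups. The antisense RNA PARD6G-AS1 was lower on every FAC array, at 7.01, 6.93 and 6.70 against 7.04, 7.06 and 7.20, and did not pass either (-0.22 ± 0.09, adjusted p = 0.264). It overlaps PARD6G, and how far the probes of the pair are separate by strand is not given in the sources used here.

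**Figure D2:**
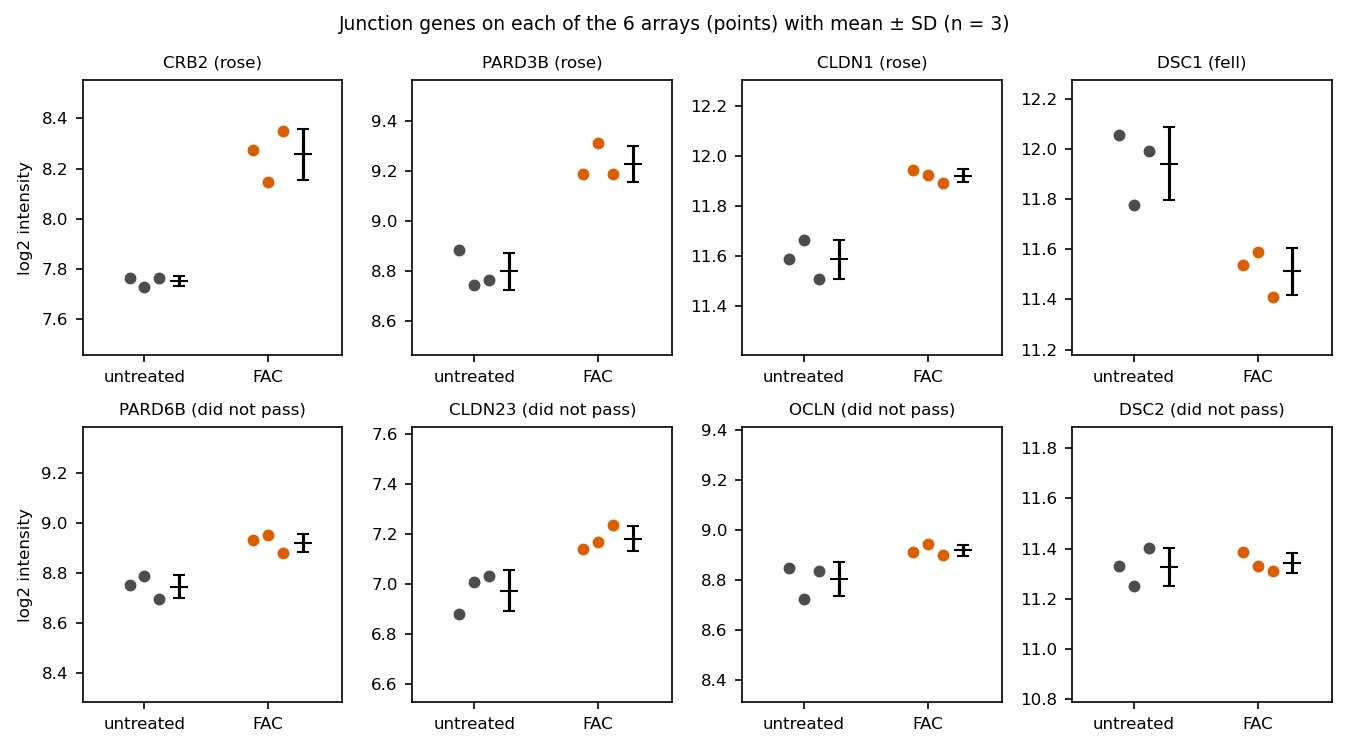
Log2 intensity (vertical axis, the same span in each panel) on each of the 3 untreated and 3 FAC arrays, with the mean ± SD beside the points, for the 4 members that passed the test (top) and 4 that did not (bottom). In PARD6B, CLDN23 and OCLN the groups also do not overlap, with smaller differences (0.18, 0.21 and 0.12), while in DSC2 they overlap.

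Among the claudins, 1 of 24 rose and none fell (4.17% called, against 3.73% of all genes). CLDN1 measured 11.59, 11.66 and 11.51 untreated and 11.94, 11.92 and 11.89 with FAC. The FAC cultures spanned 0.05, and the lowest of them lay above the highest untreated one. The change was 0.33 ± 0.06 (adjusted p = 0.025, 95% interval 0.20 to 0.47). CLDN1 did not pass when untreated replicate 1 was left out (adjusted p = 0.0773), nor without replicate 3 of that group (0.0911), FAC replicate 1 (0.11), FAC replicate 2 (0.0802) or FAC replicate 3 (0.0701), nor over all probes (0.1), while its change stayed between 0.29 and 0.37. In RefSeq it lies inside the span of CLDN16, a claudin of renal magnesium handling read from the opposite strand. CLDN16 measured 6.33 ± 0.03 and 6.43 ± 0.02 (0.09 ± 0.05, adjusted p = 0.388), with all FAC values above the untreated ones.

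CLDN23 came next by p among the claudins. It measured 6.88, 7.01 and 7.03 untreated and 7.14, 7.17 and 7.24 with FAC (0.21 ± 0.06, adjusted p = 0.129), again without overlap. In the other direction, CLDN17, an anion-pore claudin, and CLDN15, a cation-pore claudin, were lower on every FAC array. Their differences of -0.21 ± 0.09 (adjusted p = 0.278) and -0.11 ± 0.05 (adjusted p = 0.312) did not pass. CLDN17 had the lowest mean level of the 50 members, 3.79, while that of CLDN15 was 8.12. CLDN19, the principal claudin of human retinal pigment epithelium, measured 7.18, 7.26 and 7.16 untreated and 7.17, 7.24 and 7.51 with FAC. Its groups overlapped, FAC replicate 3 standing above the other arrays (0.11 ± 0.09, adjusted p = 0.608, 95% interval -0.10 to 0.32). CLDN3, a sealing claudin, measured 8.09 ± 0.05 and 8.23 ± 0.14 (0.14 ± 0.08, adjusted p = 0.406). Of the 24 claudins, 13 had a difference above 0 and 11 below, with a median of 0.04, and 11 lay among the 33.3% of tested genes with the lowest intensity. The arrays come without detection calls, so whether those dim claudins were expressed is unknown.

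Occludin and the scaffold proteins did not pass. OCLN measured 8.85, 8.73 and 8.84 untreated and 8.91, 8.94 and 8.90 with FAC. Every FAC value was above every untreated one, by a small margin (0.12 ± 0.06, adjusted p = 0.349, 95% interval -0.01 to 0.25). TJP1, which encodes ZO-1, measured 10.96, 10.94 and 10.94 untreated and 10.95, 10.94 and 10.94 with FAC. Its SD was 0.01 in untreated and 0.0053 in FAC-treated cells, and its 95% interval ran from -0.11 to 0.11 around a change of 0.0024 (adjusted p = 0.985). TJP3 (0.11 ± 0.08, adjusted p = 0.532), CGN (0.09 ± 0.09, adjusted p = 0.667) and CGNL1 (-0.05 ± 0.08, adjusted p = 0.82) overlapped between groups. The adhesion molecules JAM3 (9.06 ± 0.07 and 9.17 ± 0.07, adjusted p = 0.416) and JAM2 (5.33 ± 0.16 and 5.32 ± 0.08, adjusted p = 0.965) did so too.

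All 8 desmosomal genes matched by the name pattern were measured, and 1 of them fell (12.5% called, against 3.73% of all genes). DSC1, a desmocollin best known from the upper epidermis, measured 12.06, 11.78 and 11.99 untreated and 11.54, 11.59 and 11.41 with FAC. The groups did not overlap, and untreated replicate 2 lay closest to the FAC cultures. The change was -0.43 ± 0.09 (adjusted p = 0.0372, 95% interval -0.63 to -0.23). DSC1 did not pass when untreated replicate 1 was left out (adjusted p = 0.107), nor without replicate 3 of that group (0.132), FAC replicate 1 (0.128), FAC replicate 2 (0.0723) or FAC replicate 3 (0.111), nor over all probes (0.132), while its change stayed between -0.51 and -0.37.

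The 3 desmocollin and 4 desmoglein genes are neighbours in 1 cluster on chromosome 18. DSC2, the desmocollin of most epithelia, measured 11.33, 11.25 and 11.40 untreated and 11.39, 11.33 and 11.31 with FAC. The groups overlapped (0.02 ± 0.06, adjusted p = 0.923, 95% interval -0.12 to 0.15). DSC3 measured 10.14 ± 0.09 and 10.21 ± 0.06 (0.07 ± 0.07, adjusted p = 0.646). Within each array, DSC1 minus DSC2 lay between 0.53 and 0.73 untreated and between 0.10 and 0.26 with FAC, and DSC1 minus DSC3 between 1.74 and 1.85 and between 1.27 and 1.35. DSC1 thus moved down relative to both relatives on every FAC array. DSG2, the desmoglein of simple epithelia, measured 11.58, 11.55 and 11.53 untreated and 11.76, 11.64 and 11.60 with FAC, with no overlap, and did not pass (0.12 ± 0.06, adjusted p = 0.381). The epidermal desmogleins DSG1, DSG3 and DSG4 were all among the dimmest 33.3% of genes and differed by between -0.03 and 0.01. DSP, which encodes desmoplakin, measured 10.76 ± 0.02 and 10.75 ± 0.06 (-0.01 ± 0.05, adjusted p = 0.944).

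Both measured cadherins overlapped between groups. CDH23, a long cadherin of sensory hair cells, measured 5.92 ± 0.10 and 5.98 ± 0.13 (0.06 ± 0.08, adjusted p = 0.767). CDH26 measured 6.45 ± 0.06 and 6.44 ± 0.11 (-0.01 ± 0.07, adjusted p = 0.955).

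**Figure D3:**
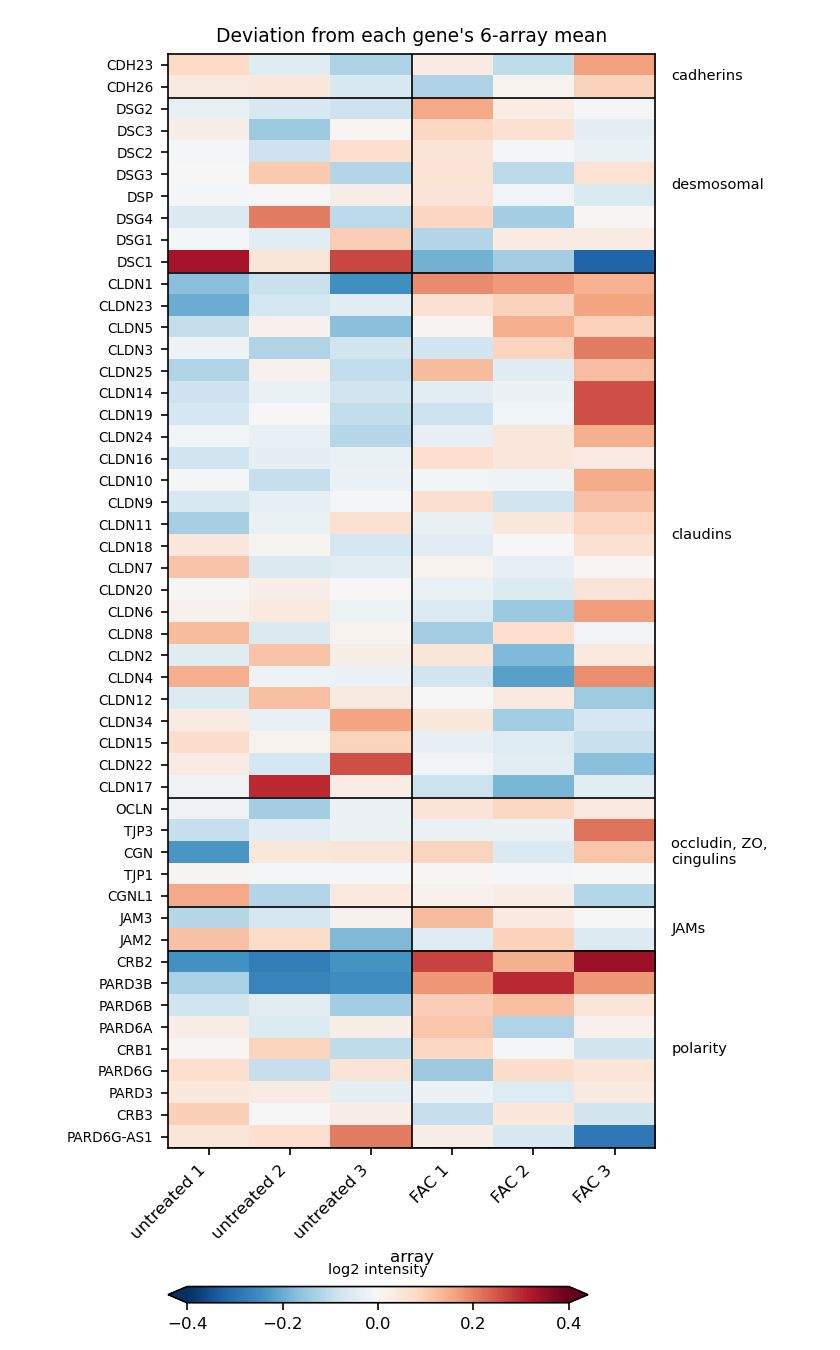
Deviation of each member (rows, by family) from its own mean over the 6 arrays (columns), on the log2 intensity scale, with red above and blue below the mean. The groups are separate in 12 of 50 members, or 24%, against 23.4% of all genes, and CRB2, PARD3B, CLDN1 and DSC1 are among them. FAC replicate 3 holds the value farthest from the mean in 14 of 50 members.

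The 6 arrays were alike. Over the probes of the table, Pearson's r between arrays was 0.991 to 0.995, and their median log2 intensities lay between 6.03 and 6.09. FAC replicate 3 was the array farthest from the mean in 14 of 50 members, or 28%, and in 23.4% of all genes. Of 14 measured markers of retinal pigment epithelium, 3 (RPE65, BEST1 and LRAT) lay among the dimmest 33.3% of genes, while OTX2, TYRP1 and MITF did not. The mean level over these 14 lay between 8.15 and 8.37 on untreated and between 8.25 and 8.29 on FAC arrays, and RDH10 alone passed, falling by 0.39 on the log2 scale. That mean hides wider spreads in the pigment genes TYRP1 and TYR. Untreated replicates 1, 2 and 3 measured 10.45, 9.48 and 10.28 for TYRP1 and 7.97, 6.88 and 7.86 for TYR. Untreated replicate 2 was the lowest of the 6 arrays for both. Of the 14 markers, 7 had a difference above 0 and 7 below. RLBP1 (0.31, adjusted p = 0.0843) and MERTK (0.18, adjusted p = 0.343) were higher on every FAC array and did not pass in limma's test. MITF (-0.15, adjusted p = 0.215) was lower on every FAC array and did not pass. Over 3 measured fibroblast markers the mean level lay between 7.28 and 7.39 untreated and between 6.97 and 7.03 with FAC, and LUM, a matrix proteoglycan gene, fell by 0.56. Over 3 blood markers it lay between 8.36 and 8.42 untreated and between 8.21 and 8.26 with FAC, and CSF1R fell by 0.37. None of 7 endothelial markers and none of 5 markers of neurons, glia and photoreceptors passed in limma's test, with 1 and 3 of them at an unadjusted p under 0.05, which 17.2% of all genes had. With 1 array left out, RDH10 (adjusted p between 0.0843 and 0.15) and CSF1R (between 0.0875 and 0.146) did not pass except without untreated replicate 2, and LUM did not without FAC replicate 1 (0.0559). With every probe tested, RDH10 (0.143), CSF1R (0.132) and LUM (0.0529) did not pass, and CSF1R did not with quantile normalization (0.0511). All cultures were of 1 cell line. In these bulk samples, fewer cells with a high level and less RNA per cell cannot be told apart. The part of differences between cells in the changes above was not tested.

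Genes that work beside the members were read from 7 lists. Of 27 measured partners of the apical junction, 2 rose and 1 fell (11.1% called, against 3.73% of all genes), with a median change of 0.03. AMOT, which encodes angiomotin, a partner of the Crumbs complex and of the growth regulator YAP, measured 8.20, 8.13 and 8.19 untreated and 8.70, 8.85 and 8.78 with FAC. The groups lay well apart (0.60 ± 0.06, 1.52-fold, adjusted p = 0.00306). The nectins, adhesion molecules of the adherens junction, went both ways. NECTIN3 fell from 10.60 ± 0.06 to 10.21 ± 0.07 (-0.39 ± 0.06, adjusted p = 0.0166) and NECTIN1 rose from 5.55 ± 0.02 to 5.84 ± 0.09 (0.29 ± 0.06, adjusted p = 0.0439). NECTIN1 lay among the dimmest 33.3% of genes, so whether it was expressed is unknown. NECTIN1 did not pass with any 1 of the 6 arrays left out (adjusted p between 0.0514 and 0.169), nor with median centring (0.0509), a variance prior with trend and robust estimation (0.0687) or every probe tested (0.151). NECTIN3 did not pass without untreated replicate 1 (0.057), untreated replicate 3 (0.0559), FAC replicate 2 (0.0616) or FAC replicate 3 (0.0579), nor with every probe tested (0.0764).

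Of 13 measured desmosome and keratin partners, 1 rose (7.69%, against 3.73% of all genes called). PPL, which encodes periplakin, a plakin that links desmosomes with keratin, measured 9.65, 9.57 and 9.58 untreated and 10.09, 10.30 and 10.23 with FAC (0.60 ± 0.07, 1.52-fold, adjusted p = 0.00576). The plaque proteins plakophilin 2 (PKP2, 0.25 ± 0.06, adjusted p = 0.0588) and plakoglobin (JUP, 0.23 ± 0.07, adjusted p = 0.116) were higher on every FAC array and did not pass. PKP2 did pass without the dimmest genes (adjusted p = 0.0254), with quantile normalization (0.037) and with a variance prior with trend and robust estimation (0.00712), and JUP with that prior (0.019). The median over these 13 genes was 0.14.

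Of 27 other measured genes of the cadherin superfamily, 3 rose and 2 fell (18.5% called, against 3.73% of all genes), with a median of -0.01. The protocadherin genes PCDH18 (0.59 ± 0.07, adjusted p = 0.00667) and PCDH19 (0.41 ± 0.07, adjusted p = 0.025) and the calsyntenin gene CLSTN2 (0.45 ± 0.08, adjusted p = 0.025) rose. Of these, PCDH19 lay among the dimmest 33.3% of genes, so whether it was expressed is unknown. PCDH9, another protocadherin gene, measured 7.83 ± 0.16 untreated and 7.08 ± 0.08 with FAC, and fell by 0.75 on the log2 scale (adjusted p = 0.00665). A second probe of PCDH9 gave 0.08, and with both averaged the change was -0.34. The mean level of that second probe was 3.21, near the lowest value of the table (2.41), against 7.45 for the first. The second gene that fell was FAT4, a giant atypical cadherin, at -0.27 ± 0.05 (adjusted p = 0.0321), named after its value was seen. PCDH19 did not pass without untreated replicate 3 (0.0781), FAC replicate 1 (0.113), FAC replicate 2 (0.0692) or FAC replicate 3 (0.0764). CLSTN2 did not pass without untreated replicate 1 (0.0563), untreated replicate 3 (0.0516), FAC replicate 1 (0.0994), FAC replicate 2 (0.0825) or FAC replicate 3 (0.0763). FAT4 did not pass with any 1 of the 6 arrays left out (adjusted p between 0.0591 and 0.135). With every probe tested, PCDH19 (0.0982), CLSTN2 (0.0976) and FAT4 (0.128) did not pass either.

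The remaining lists held at most 1 gene each that passed, where 3.73% of all genes did. None of 8 measured genes of cadherin cleavage and turnover passed in limma's test, although 4 of them had an unadjusted p under 0.05, which 17.2% of all genes had. The sheddase genes ADAM15 (-0.15 ± 0.05, adjusted p = 0.179) and ADAM10 (-0.15 ± 0.05, adjusted p = 0.212) and the gamma-secretase subunit gene NCSTN (-0.14 ± 0.05, adjusted p = 0.187) were lower on every FAC array. With a variance prior with trend and robust estimation, 3 of the 8 passed, all lower with FAC: NCSTN (adjusted p = 0.012), ADAM10 (0.0272) and ARF6 (0.0478), a GTPase gene of membrane traffic. That fit called 1026 of all 14884 genes, against 555 in the main comparison. Of 19 measured genes of epithelial-mesenchymal transition, 1 was called (5.26%): TCF4, an E-box binding factor, fell (-0.37 ± 0.06, adjusted p = 0.0214). SNAI1, which encodes the cadherin repressor Snail, measured 6.87 ± 0.08 and 6.59 ± 0.10 (-0.28 ± 0.07, adjusted p = 0.0855), and passed without the dimmest genes (adjusted p = 0.0417). Vimentin (VIM) differed by 0.0014 on its brightest probe and by -0.09 and -0.07 on its other probes. FN1, of the same list, was lower on every FAC array and did not pass (-0.14 ± 0.05, adjusted p = 0.208). Of the 19 genes, 12 had a difference above 0 and 7 below. Of 12 measured targets of beta-catenin, 1 was called (8.33%): MYC fell (-0.46 ± 0.08, adjusted p = 0.0221). None of 3 measured pannexin genes, whose products form channels related to gap junctions, passed in limma's test, with 1 at an unadjusted p under 0.05. TCF4 did not pass without untreated replicate 1 (0.0638), untreated replicate 2 (0.0516), FAC replicate 1 (0.0957), FAC replicate 2 (0.0695) or FAC replicate 3 (0.064), and MYC did not without untreated replicate 1 (0.0708), untreated replicate 3 (0.0781), FAC replicate 1 (0.0855), FAC replicate 2 (0.0554) or FAC replicate 3 (0.0763). With every probe tested, TCF4 (0.0922) and MYC (0.0909) did not pass.

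**Figure D4:**
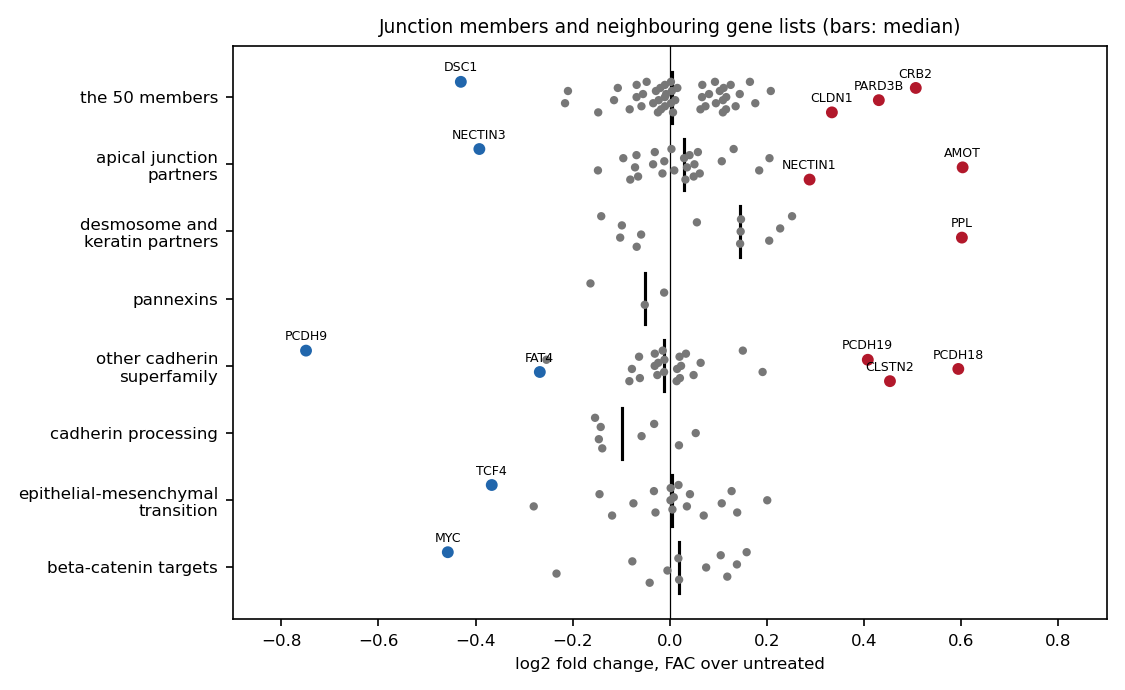
Log2 fold change of FAC over untreated (horizontal axis) for the 50 members and the 7 lists of neighbouring genes, 1 point per gene, with red for genes that rose, blue for genes that fell, grey for genes that did not pass, and a black bar at the median of each row. AMOT and PPL (0.60 each) and PCDH18 (0.59) lie furthest to the right and PCDH9 (-0.75) furthest to the left.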

How the data were processed

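Per the labels' protocols, amplified and biotinylated cDNA from the total RNA of 6 ARPE-19 cultures was measured, each on its own array. The deposited table holds 53617 probes by 6 arrays as log2 intensities, a unit read from its range (2.41 to 14.22). The submitters' processing notes name Partek 6.6 and RMA but not what each did; the remaining steps are not given in the sources used here. The platform annotation names 16098 probes with 1 symbol each, none with several, and 37519 are unnamed. For each of 14884 genes the probe with the highest mean was taken, with no renormalization.

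The comparison used lmFit and eBayes of limma 3.58.1 under R 4.3.3, 2-sided, and genes with a Benjamini-Hochberg adjusted p below 0.05 over all genes were called. The procedure was tested on simulated data. The replicates are biological per the series' design text. The members, the lists and the naming rule were chosen with earlier results of these data known. The rule names every member that passed, the 2 with the smallest p and the 2 with the highest level in each family, a fixed set (CDH1, CDH2, CDH3, CTNNB1, CTNNA1, TJP1, OCLN, CLDN1, CLDN19 and GJA1, where measured) and, from each list, up to 4 genes past the threshold or otherwise 1 or 2 with the smallest p. Other genes named, such as overlapping neighbours and family relatives, were picked with their values known. The 14 alternatives are leaving out the dimmest 33.3% of genes, quantile normalization, median centring, a variance prior with trend and robust estimation, array weights, averaging probes, testing every probe, a replicate block, and leaving out each of 6 arrays. Without detection calls or scan dates, signal over background and batches could not be examined. Promoters came from RefSeq (GRCh38.p14), and RefSeq positions served otherwise only to find overlapping neighbours.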

Additional observations from a re-analysis of the deposited data

How the results depend on the processing

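All 4 calls (CRB2, PARD3B, CLDN1 and DSC1) held under quantile normalization, median centring, array weights, averaged probes, a variance prior with trend and robust estimation, and without the dimmest genes, and no further member was called under any alternative. With every probe tested, 1 member (CRB2) was called, 4 genes of the neighbouring lists and 254 probes, an alternative whose adjustment spans more features. With 1 array left out, between 1 and 4 members were called, between 4 and 9 of the lists' genes (11 in the full comparison) and between 147 and 447 of all genes (555 in full), with fewer samples in each fit. The lists' count was 18 and that of all genes 1026 with the variance prior with trend and robust estimation, 2 choices changed together, and all genes gave 840 without the dimmest ones; the cause was not tested. The deviations of same-numbered arrays correlated at -0.02, -0.03 and -0.15 over all genes, and those of differently numbered arrays at between -0.10 and 0.13. With 3 arrays per group, these values cannot show whether same-numbered cultures belong together. With the replicate number as a block, 1 member was called (CRB2, adjusted p = 0.0316), 5 genes of the lists and 184 genes in all. PARD3B (adjusted p = 0.0596), CLDN1 (0.0691) and DSC1 (0.0907) did not pass in that fit. No called gene named in the text changed direction under any of these alternatives in which it was tested. Precision is limited by 3 arrays per group and by the 18 of 50 members that lay among the dimmest 33.3% of genes.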
